A study of Mus musculus with 22 samples.

Results

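Proximal chromosome 15 is taken here as the stretch from the first probe of the chromosome, at position 3004549 in the coordinates of the array files, to 40.65 Mb. It holds 2903 of the 232626 positioned probes of the array and 227 genes by the names in the array files, 141 of them with at least 3 probes. The members were chosen by measured values. The limit was set on these log2 ratios, just past the start of the chromosome 15 gain in 1 lymphoma (mouse 2). The levels, starts and classes of gain below are therefore a description and carry no test. Averaged over the 5 probes just inside the limit that mouse stood at 0.02, and over the 5 probes just outside it at 0.42. In lymphoma mouse 1, gained along the whole chromosome, the same probes averaged 0.40 inside and 0.38 outside. In lymphoma mouse 2 the last 2 inside probes, at 0.61 and 0.70, already lay past the start, so its 0.02 mixes both levels.

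Genomic DNA of thymocytes was measured by array comparative genomic hybridisation in 22 mice, each on 1 array. All 22 mice were Atm-deficient, that is, without a kinase that responds to broken DNA. The 8 mice of the lymphoma group had a T-cell lymphoma of the thymus, and the 14 mice of the no-lymphoma group showed none by eye. No mouse was treated, and strain, age and sex are not in the labels, nor is the part of Atm that was altered or the share of tumour cells in the thymus. The DNA of each mouse carried Cy5 and competed with wildtype thymocyte DNA carrying Cy3, in 1 dye orientation throughout. Ratios of Atm-deficient to wildtype DNA are given on the log2 scale, centred on the autosomal median, so that 0 means equal copy number and a positive value means more DNA in the Atm-deficient thymocytes. With 1 array per mouse, precision is limited by the number of arrays. In a thymus that mixes cells with and without a gain, fewer gained cells and a smaller gain per cell cannot be told apart.

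Il7r encodes the alpha chain of the interleukin-7 receptor. It pairs with the common gamma chain and signals through the kinases JAK1 and JAK3 to STAT5. Immature thymocytes depend on this signal for survival and for growth. Gain of chromosome 15 is a frequent finding in mouse T-cell lymphomas, and it is usually discussed for the oncogene Myc, which lies farther along the chromosome, beyond the limit used here.

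The probes at 3 starts of a gain are printed because they bound the places where copy number changed. The 4 probes in Il7r are represented by the middle pair. All are written in lower case, 5′ to 3′, as the array files give them. Their strand and the genome build of their coordinates are not given in the sources used here. None holds a recognition site of AluI or RsaI, the enzymes that cut the DNA.
Start in lymphoma mouse 2, last probe before it, chr15:40626273-40626332: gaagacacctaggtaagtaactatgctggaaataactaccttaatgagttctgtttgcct
Start in lymphoma mouse 2, first probe after it, chr15:40640807-40640866: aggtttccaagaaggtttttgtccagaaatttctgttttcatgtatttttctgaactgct
Start in lymphoma mouse 7, last probe before it, chr15:33234025-33234084: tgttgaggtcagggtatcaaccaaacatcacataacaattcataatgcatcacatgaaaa
Start in lymphoma mouse 7, first probe after it, chr15:33240384-33240443: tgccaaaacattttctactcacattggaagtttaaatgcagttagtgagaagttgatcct
Start in no-lymphoma mouse 11, last probe before it, chr15:7591947-7592006: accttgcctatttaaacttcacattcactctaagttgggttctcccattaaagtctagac
Start in no-lymphoma mouse 11, first probe after it, chr15:7619937-7619996: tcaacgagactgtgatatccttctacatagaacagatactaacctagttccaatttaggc
Il7r, chr15:9583727-9583786: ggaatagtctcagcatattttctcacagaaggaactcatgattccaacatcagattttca
Il7r, chr15:9592673-9592732: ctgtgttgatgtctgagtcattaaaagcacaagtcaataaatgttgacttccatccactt

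Noise between neighbouring probes, given as an SD, ranged from 0.15 to 0.37 in the lymphoma arrays and from 0.13 to 0.55 in the others. With 2903 probes the standard error of a region median was between 0.0031 and 0.013, which covers probe noise only. Of the 12 Atm probes on chromosome 9, the one with the highest median over the arrays was positive in 19 arrays. It was negative in 3 of the no-lymphoma group, the arrays labelled mouse 1, 3 and 4, at -1.08, -0.72 and -0.63. The other 11 Atm probes had medians from -0.04 to 0.25, and where the gene was altered is not stated, so these values do not settle the labels. No-lymphoma mouse 9 and the arrays labelled mouse 3 and 4 of its group correlated with each other at 0.82 to 0.87 over autosomal probes. They took part in 8 pairs whose correlation with other arrays lay under -0.3, the limit set for listing, between -0.48 and -0.32. Their remaining pairs with other arrays did not pass that limit. These arrays were picked by their correlations, high with each other and negative with others, so the values given are selected ones. The labels state the dyes, and the labelled direction was kept for all arrays.

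In 5 of the 8 lymphomas the gain covered proximal chromosome 15 from its first probe. The region median was 0.46 in lymphoma mouse 1, 0.46 in mouse 3, 0.45 in mouse 4, 0.53 in mouse 5 and 0.49 in mouse 6, which corresponds to ratios between 1.36 and 1.44. In lymphoma mice 2 and 7 the region median was -0.04 and -0.0035, while the rest of chromosome 15 stood at 0.53 and 0.55, so these 2 gains left all or most of the region out. Lymphoma mouse 8 lay between, at 0.12 in the region and 0.17 beyond it. The group mean of the region median was 0.31 ± 0.24 (SD, n = 8), and this mean stands for no single mouse: 5 arrays lay near 0.5, 2 near 0 and 1 between.

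In the no-lymphoma group the region median ranged from -0.05 to 0.42 with a median of -0.0044, and its mean was 0.04 ± 0.13 (SD, n = 14). No-lymphoma mouse 11, at 0.42, stood just under the 5 lymphomas with a gain of the whole region. No-lymphoma mouse 14 had 0.21 and no-lymphoma mouse 7 had 0.16. The remaining 11 arrays lay between -0.05 and 0.01. The groups therefore overlapped: lymphoma mice 2 and 7 were level with these 11 arrays, and lymphoma mouse 8 lay below no-lymphoma mice 7, 11 and 14. Without the 3 arrays of a negative Atm probe the mean was 0.06 ± 0.14 (SD, n = 11).

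**Figure D1:**
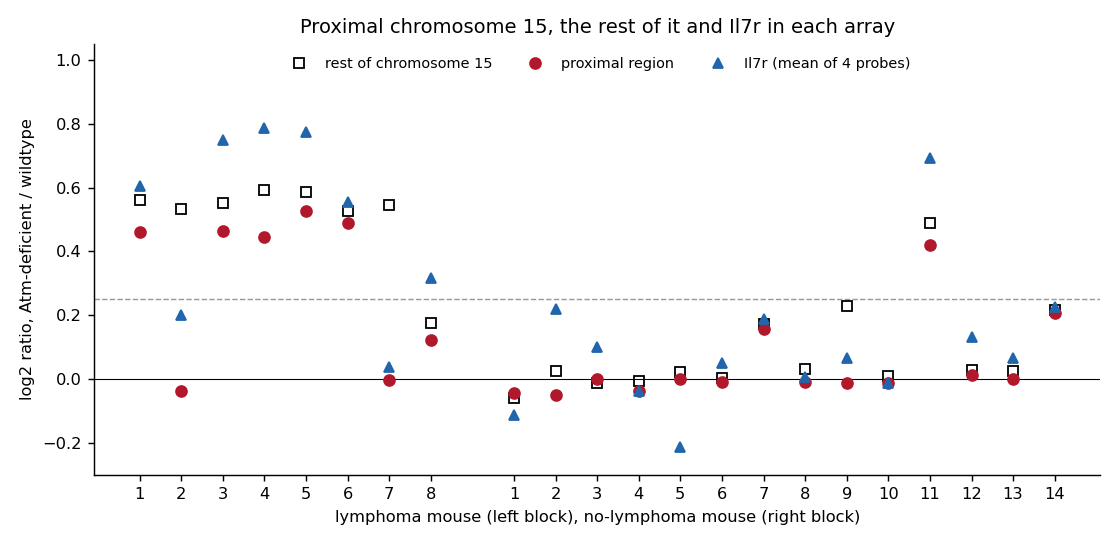
Log2 ratio (y axis) in each of the 22 arrays, with lymphoma mice in the left block and no-lymphoma mice in the right block. Red points are the median of proximal chromosome 15, open squares the median of the rest of the chromosome, blue triangles the mean of the 4 Il7r probes, and the dashed line marks 0.25, the level from which a segment was called gained. Red points and squares lie close together except in lymphoma mice 2 and 7 and no-lymphoma mouse 9.

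Chromosome 15 had the highest median of the 19 autosomes in all 8 lymphomas, but in mouse 8 it led narrowly, with 0.154 against 0.149 on chromosome 14. It was also the highest in 7 of the 14 no-lymphoma arrays, mice 7, 8, 9, 11, 12, 13 and 14. In mice 7 and 14 the next highest medians were 0.05 and 0.02, in mouse 9 chromosome 15 stood at 0.15 against 0.08, and in mouse 11 at 0.47 against 0.26. In mice 8, 12 and 13 it was at most 0.02.

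The scan batch of each array was read from the file headers. Lymphoma mouse 8 was scanned in batch 5 with no-lymphoma mice 7, 11 and 14, so all 4 arrays of that batch had a region median of 0.12 or more, and within it the lymphoma was the lowest. In batch 1 the lymphomas (mice 1, 3 and 4) stood at 0.45 to 0.46 and no-lymphoma mouse 2 at -0.05. In batch 3 the lymphomas had -0.04 (mouse 2) and 0.53 (mouse 5) against -0.0008 and -0.0078 in no-lymphoma mice 5 and 6. In batch 6 lymphoma mice 6 and 7 had 0.49 and -0.0035 against -7.2e-05 in no-lymphoma mouse 13. Batches 2 and 4 held no lymphoma. The part of the batch in the low rises was not tested.

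Each array was cut into segments of equal level, and segments whose mean reached 0.25 were called gained. An array was classed as whole where gained segments held at least 90% of the chromosome 15 probes, as partial from 10%, and otherwise as none. By this rule 5 lymphomas were whole, 2 partial (mice 2 and 7) and 1 none (mouse 8). In the no-lymphoma group 1 array, mouse 11, was whole and 13 were none. The class depended on the level chosen in the arrays near it. From 0.15, lymphoma mouse 8 and no-lymphoma mice 2, 7, 9 and 14 became partial. From 0.35, lymphoma mouse 4 and no-lymphoma mouse 11 fell from whole to partial.

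Where a gain left part of the region out, its start could be placed between 2 neighbouring probes. In lymphoma mouse 2 it lay between 40626332 and 40640807, a gap of 14.5 kb. The 50 probes before it averaged -0.15 ± 0.22 (SD) and the 50 after it 0.44 ± 0.13. A step fitted by least squares had no second position within its 95% limit. The flanking probes carry no gene name. The nearest named features were the transcript clone AK034246 on the near side and Zfpm2, which encodes a zinc finger cofactor of GATA factors, on the far side, so all named genes of the region lay outside this gain.

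In lymphoma mouse 7 the gain began between 33234084 and 33240384, inside Cpq (named Pgcp in the array files), the gene of a secreted carboxypeptidase. The 50 probes before averaged -0.07 ± 0.18 (SD) and the 50 after 0.40 ± 0.22, and start positions over 46.4 kb fitted within the 95% limit. Of the 63 Cpq probes, 6 lay before the start with a mean of -0.20 ± 0.28 (SD over probes) and 57 after it with 0.41 ± 0.21. The last probe before the start read -0.76, so the mean of those 6 leans on it. The difference between the parts was 0.61 in this mouse. In the other 21 arrays it ran from -0.20 (no-lymphoma mouse 9) to 0.29 (no-lymphoma mouse 14), so no other array had a step of that size in Cpq. The region was level for 30.2 Mb before this start and gained for the last 7.41 Mb, where the 693 probes had a median of 0.55. Over the stretch from here to the start in lymphoma mouse 2 the 5 lymphomas with a whole gain had medians of 0.51 to 0.56, and the partial gain, at 0.55, lay within that range where it was present.

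In no-lymphoma mouse 11 the start lay between 7592006 and 7619937, within the span of the sequence named DX574112 in the array files, between Lifr on the near side and Gdnf, a neurotrophic factor gene, on the far side. The 50 probes before averaged 0.15 ± 0.23 (SD) and the 50 after 0.59 ± 0.27, with 6.64 kb of start positions within the 95% limit. The first 4.59 Mb of the region were therefore not at 0: their 409 probes had a median of 0.15, and the 2494 probes of the region after the start had 0.46. The same first stretch stood at 0.14 in lymphoma mouse 8, 0.17 in no-lymphoma mouse 7 and 0.21 in no-lymphoma mouse 14, the other arrays of its scan batch. This array was whole by the class rule only because the missing part was short.

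**Figure D2:**
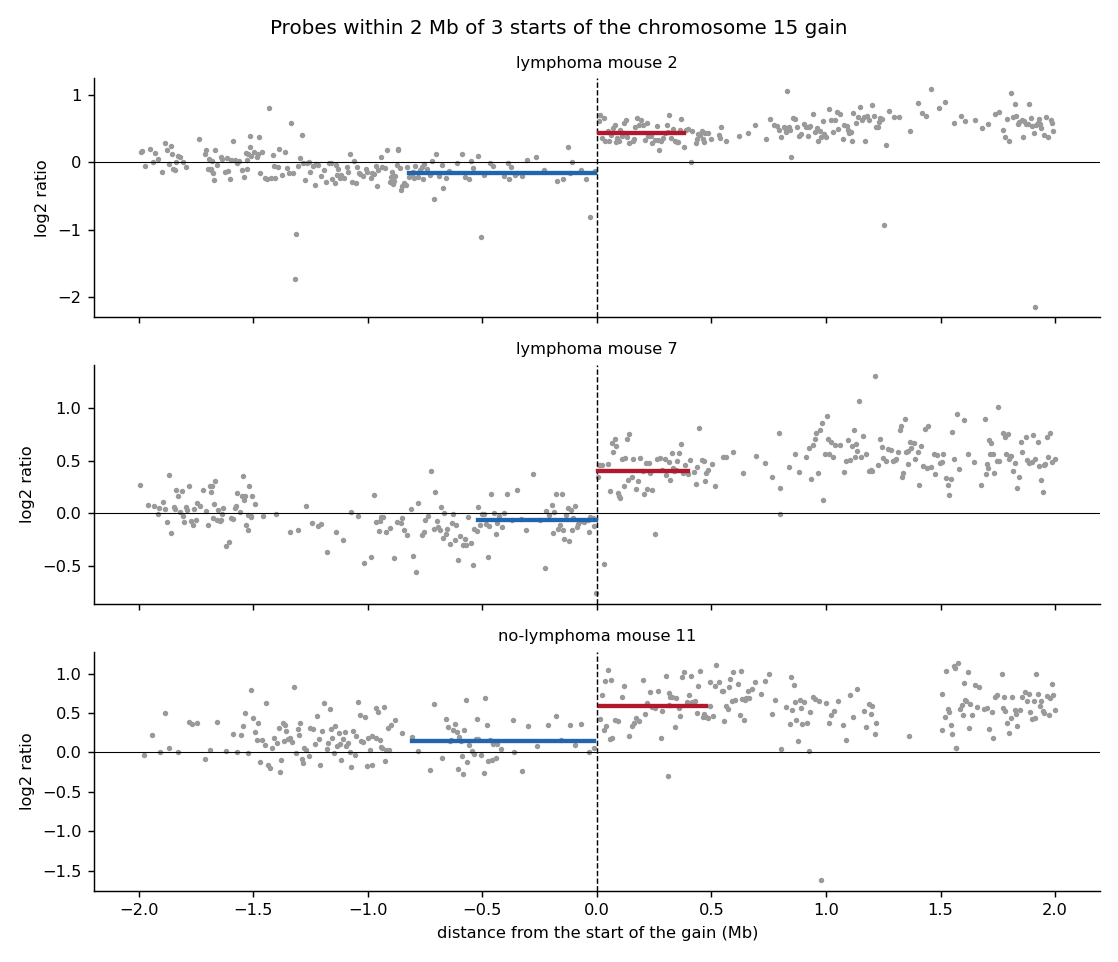
Log2 ratio of each probe (y axis, grey points) against distance in Mb from the start of the gain (x axis, dashed line at 0) in lymphoma mouse 2, lymphoma mouse 7 and no-lymphoma mouse 11. Blue and red lines are the means of the 50 probes before and after, which rise from -0.15 to 0.44, from -0.07 to 0.40 and from 0.15 to 0.59.

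Counted over the 141 genes with at least 3 probes, all 141 lay in a gain in each of the 5 whole-gain lymphomas, in which 7.89% (mouse 1), 7.74% (mouse 3), 8.64% (mouse 4), 9.13% (mouse 5) and 7.92% (mouse 6) of all autosomal probes were in gains. In lymphoma mouse 7 it was 42 genes, or 29.8%, against 5.61% of autosomal probes. In lymphoma mice 2 and 8 it was 0 genes, against 10.7% and 8.63%. In the no-lymphoma group it was 119 genes in mouse 11, against 13.8%, and 10 genes in mouse 2, against 6.28%. The other 12 arrays of that group had 0 genes in a gain. Of their autosomal probes 5.15%, 0.015% and 0.01% were in gains in those labelled mouse 1, 3 and 4. The share was 0.897%, 0.0186%, 1.24%, 0.00227%, 0.828% and 0.0109% in mice 5 to 10, and 0.0709%, 0.461% and 1.01% in mice 12, 13 and 14. As the limit of the region was set on these values, the counts are given as they stand. By number of arrays, 22 genes were gained in 5 lymphomas and no other array, 76 in 5 lymphomas and 1 other array, and 33 in 6 lymphomas and 1 other array. A further 9 were gained in 6 and 2, and 1 in 5 and 2. No matching share over all autosomal genes is at hand, so nothing is read from these counts by number of arrays.

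The 3 starts fall at different distances from the receptor genes and Myc, so these genes differ in the arrays that gained them. No-lymphoma mouse 14 differs between them by another start. Ghr and Lifr, in the first stretch, lay in a called gain in 5 of 8 lymphomas and 0 of 14 no-lymphoma arrays. Il7r, in the second, lay in a gain in the same 5 lymphomas (mice 1, 3, 4, 5 and 6) and in no-lymphoma mouse 11. Myc lay in a gain in 7 of 8 lymphomas and in no-lymphoma mice 11 and 14. In no-lymphoma mouse 14 that gain began at 57632928, beyond the region. In lymphoma mice 2 and 7 Myc was thus gained and Il7r was not. These calls hold for the level of 0.25. From 0.15, no-lymphoma mouse 14 was also gained over Ghr, Lifr and Il7r, and lymphoma mouse 8 over Lifr and Il7r. The first segment of no-lymphoma mouse 11, with Ghr and Lifr, averaged 0.1488, just under that lower level. No matching share over all genes is at hand for these counts.

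The 4 Il7r probes span 9579849 to 9596724. Their mean was 0.60 in lymphoma mouse 1, 0.75 in mouse 3, 0.79 in mouse 4, 0.77 in mouse 5 and 0.56 in mouse 6. It was 0.20 in mouse 2, 0.04 in mouse 7 and 0.32 in mouse 8. The lymphoma mean was 0.50 ± 0.29 (SD, n = 8). In the no-lymphoma arrays the lowest was -0.21 (mouse 5), the median 0.07 and the highest 0.69 (mouse 11), with a mean of 0.10 ± 0.21 (SD, n = 14). No-lymphoma mouse 11 overlapped the gained lymphomas, and lymphoma mice 2 and 7 overlapped the no-lymphoma arrays.

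The single Il7r probes differed among themselves. The probe at 9583727 ran from 0.02 to 0.69 in the lymphomas with a median of 0.46, and from -0.20 to 0.70 in the others with a median of 0.08. The probe at 9592673 ran from 0.12 to 1.63 in the lymphomas with a median of 0.68, and from -0.46 to 0.87 in the others. Its highest value came from lymphoma mouse 3, the noisiest lymphoma array. The level of Il7r thus rests on 4 probes.

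Over Il7r and 100 kb to each side (27 probes) the median was compared within each array with the flanks out to 1 Mb (156 probes). In the gained lymphomas the neighbourhood stood above its flanks by 0.09 in mouse 1, 0.13 in mouse 3, 0.21 in mouse 4, 0.22 in mouse 5 and 0.02 in mouse 6. In mouse 5 this was a segment of its own, from 9530348 to 9669527 with 19 probes at 0.79, between segments at 0.55 and 0.51. A rise also appeared where the region was not gained: it was 0.20 in lymphoma mouse 2, 0.17 in no-lymphoma mouse 2 and 0.24 in no-lymphoma mouse 9. The arrays labelled mouse 3 and 4 of that group had 0.22 and 0.23. It was 0.03 in lymphoma mouse 7 and 0.11 in lymphoma mouse 8, and it lay between -0.06 and 0.06 in the other 10 no-lymphoma arrays. The mean was 0.13 ± 0.08 (SD, n = 8) in the lymphomas and 0.05 ± 0.11 (SD, n = 14) in the others, and without no-lymphoma mouse 9 and the arrays labelled 3 and 4 it was 0.0057 ± 0.064 (SD, n = 11) in the latter. A raised neighbourhood of Il7r thus appeared both with and without a gain of the region. Among the arrays without one, no-lymphoma mouse 9 and those labelled 3 and 4 had high probe noise, at 0.51, 0.55 and 0.49. The 4 Il7r probes alone stood above the flanks there by 0.08, 0.15 and 0.03. No error was computed for the medians of 27 probes.

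**Figure D3:**
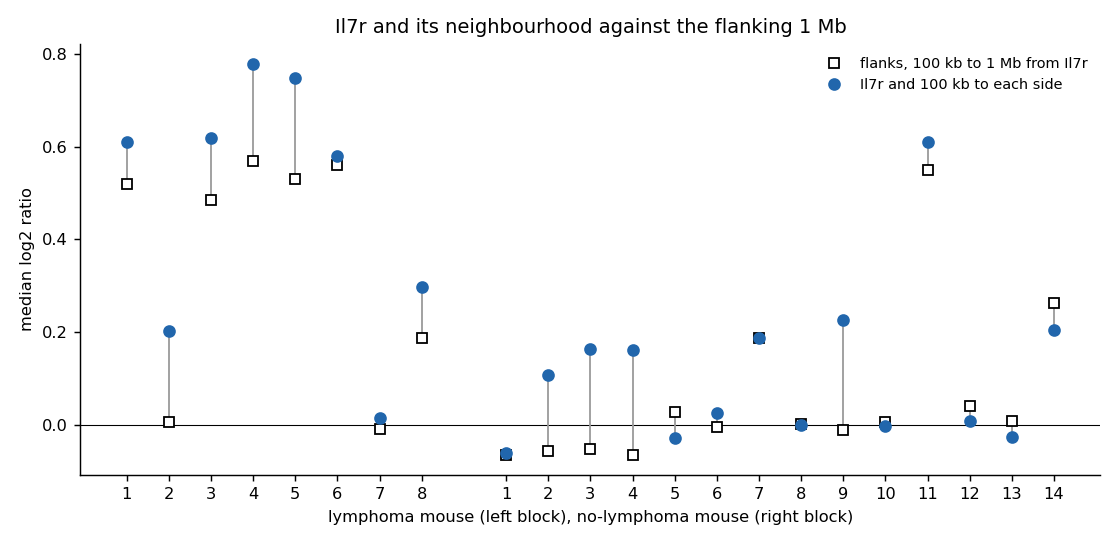
Median log2 ratio (y axis) of Il7r with 100 kb to each side (blue points) and of the flanks from there to 1 Mb (open squares), joined by a line in each array, with lymphoma mice in the left block and no-lymphoma mice in the right block. Lymphoma mice 4 and 5 show differences of 0.21 and 0.22, and lymphoma mouse 2, with flanks near 0, shows 0.20.

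The region holds 4 further genes of the class I cytokine receptor family, to which Il7r belongs. Ghr, the growth hormone receptor, lies nearest the start of the chromosome and has 32 probes. It ran from -0.12 to 0.51 in the lymphomas (median 0.39) and from -0.09 to 0.21 in the others, the highest being no-lymphoma mouse 14. Osmr, the oncostatin M receptor, ran from -0.10 to 0.52 in the lymphomas (median 0.41) and from -0.08 to 0.21 in the others. Lifr, the receptor for leukaemia inhibitory factor, ran from -0.03 to 0.58 (median 0.49) and from -0.08 to 0.17.

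In these 3 genes no-lymphoma mouse 11 had 0.11, 0.18 and 0.17, and its gain began beyond them. Prlr, the prolactin receptor, lies after Il7r and inside that gain: no-lymphoma mouse 11 had 0.58 there, between lymphoma mouse 4 (0.54) and lymphoma mouse 3 (0.61). Group means of Prlr were 0.35 ± 0.26 (SD, n = 8) and 0.03 ± 0.20 (SD, n = 14), and those of Lifr 0.35 ± 0.25 and 0.01 ± 0.07. In Ghr, Osmr, Lifr and Prlr lymphoma mice 2 and 7 had values under 0, and in both mice these genes lie before the start of the gain.

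Genes with roles in lymphocytes also lie in the region. Fyb, an adaptor in T-cell receptor signalling, ran from 0.07 to 0.68 in the lymphomas (median 0.50) and from -0.13 to 0.23 in the others. Skp2, a ubiquitin ligase subunit that targets inhibitors of the cell cycle, averaged 0.33 ± 0.19 (SD, n = 8) against 0.01 ± 0.17 (SD, n = 14). Gdnf, a neurotrophic factor gene that was listed with the lymphocyte genes, averaged 0.33 ± 0.33 against 0.04 ± 0.21. Lymphoma mice 2, 7 and 8 had -0.12, 0.05 and -0.08 in it. Among growth and nutrient signalling genes, Rictor, a subunit of the mTOR complex that acts on AKT, ran from 0.04 to 0.59 in the lymphomas and from -0.18 to 0.19 in the others. Prkaa1, a catalytic subunit of the energy sensor AMPK, averaged 0.32 ± 0.29 against -0.08 ± 0.33. The groups overlapped widely in it, since the no-lymphoma arrays reached from -0.71 to 0.41.

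Stk3, a kinase of the Hippo pathway, lies beyond the start in lymphoma mouse 7, which had 0.57 there, the highest of all arrays. Lymphoma mouse 2 had 0.11 and lymphoma mouse 8 had 0.06, so in Stk3 the partial gain of mouse 7 sat with the whole gains.

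Several genes act on chromatin, RNA or DNA. Nipbl, which loads cohesin onto chromosomes, averaged 0.46 ± 0.27 (SD, n = 8) against 0.08 ± 0.23 (SD, n = 14), and the highest value of all arrays, 0.74, was that of no-lymphoma mouse 11. Drosha, the nuclease that cuts primary microRNAs, averaged 0.38 ± 0.24 against 0.08 ± 0.20. Sub1, a transcription coactivator, averaged 0.48 ± 0.26 against 0.01 ± 0.12. Rrm2b, a ribonucleotide reductase subunit induced by p53, lies in the last stretch and averaged 0.53 ± 0.26 against 0.13 ± 0.19. Rad1, part of the clamp that marks damaged DNA, has a single probe and averaged 0.26 ± 0.22 against 0.03 ± 0.24.

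Complement genes and cadherins make up other parts of the region. C6 and C9, components of the membrane attack complex, averaged 0.28 ± 0.29 and 0.34 ± 0.24 in the lymphomas (SD, n = 8) against -0.01 ± 0.13 and -0.03 ± 0.14 in the others (SD, n = 14). Cdh12, a cadherin with 60 probes, averaged 0.18 ± 0.28 against -7.3e-05 ± 0.13, and it was lower than the region median in its own array by 0.13 on average in the lymphomas.

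Between the groups 88 of the 141 genes were higher in the lymphomas and 0 lower by limma at an adjusted p under 0.05, against 6.68% higher and 2.51% lower of the 12986 autosomal genes tested. At an adjusted p under 0.05 the count of higher genes fell to 6 of 141 with the scan batch as a block, where 2.88% of all genes were higher. It fell to 45 without the 3 arrays of a negative Atm probe (labelled no-lymphoma mouse 1, 3 and 4), beside 4.47% of all genes, and to 49 without the noisiest array of each group, beside 5.14%. The limit of the region was drawn from the same values, so nothing is read from these counts. By list they were 5 of 5 class I cytokine receptors and 3 of 4 genes of the lymphocyte list, which includes Gdnf. Further counts were 4 of 6 growth and nutrient signalling genes and 9 of 11 chromatin, RNA and DNA factors. They were 2 of 2 complement genes, 5 of 6 other genes near Il7r and 0 of 2 cadherins (both had an unadjusted p under 0.05). The median difference between the groups over the 141 genes was 0.32, beside 0.05 over all 12986.

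Partners of Il7r outside chromosome 15 were looked up from a list of 23 genes of the interleukin-7 pathway, of which 11 had at least 3 probes. By limma 0 of the 11 differed at an adjusted p under 0.05, beside 9.19% of all genes in either direction. At an unadjusted p under 0.05 the count was 6 of the 11. No share over all genes is at hand for that threshold, so nothing is read from this count. The 11 genes had a median difference of 0.11, beside 0.05 over all genes. Il7, the ligand, averaged -0.17 ± 0.09 in the lymphomas (SD, n = 8) and -0.05 ± 0.10 in the others (SD, n = 14). Jak1 averaged 0.24 ± 0.23 against 0.09 ± 0.13, and Stat5b 0.17 ± 0.08 against 0.06 ± 0.12. Bcl2, the survival factor downstream of the receptor, averaged 0.05 ± 0.07 against 0.06 ± 0.16. Akt1, on chromosome 12, had medians of -0.67 in the lymphomas and -0.0066 in the others. Lymphoma mice 1 and 7 stood at 0.69 and 1.26 in it, and the other lymphomas between -0.74 and -0.64. The no-lymphoma arrays ran from -0.33 to 1.34. The count of 0 therefore does not mean that copy number was level in all of these genes. In Pik3cd, a catalytic subunit of phosphoinositide kinase, the values ran from -0.04 to 3.42 in the lymphomas with a median of 0.36. In the others they ran from -0.37 to 0.28. Pik3cd and Jak1 both lie on chromosome 4, which had a median of 0.29 in lymphoma mouse 2. That mouse had the highest value of both genes, 3.42 in Pik3cd and 0.66 in Jak1. The next highest Jak1 value was 0.52, in lymphoma mouse 4.

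Within the region the level was not flat, and its shape recurred. The limits of the stretches named next follow the levels of these same arrays, so their offsets are a description and carry no test. The stretch from 13 to 25 Mb, which holds Cdh12, stood below the other probes of the region (those outside 36 to 39 Mb) by 0.14 ± 0.05 (SD, n = 8) in the lymphomas, a difference of -0.19 to -0.04, and differed by -0.04 ± 0.06 (SD, n = 14) in the other group. The stretch from 36 to 39 Mb stood above them by 0.08 (lymphoma mouse 6) to 0.26 (lymphoma mouse 4) in the 5 lymphomas with a whole gain and by 0.16 in lymphoma mouse 2, which had no gain there. In lymphoma mouse 7, whose gain covers this stretch but not most of the region, the offset was 0.66. In the no-lymphoma group the median was 0.05. Among genes with a symbol and at least 3 probes, those farthest above the region median in the lymphomas all lie in it: Pabpc1, which binds the poly(A) tail, by 0.31, Ncald, a neuronal calcium sensor, by 0.25, and Grhl2, an epithelial transcription factor, by 0.25. Of the same genes, those farthest below were Cdh12, Plcxd3, a phospholipase family gene, and Fbxl7, an F-box gene, by -0.13, -0.09 and -0.09. These ranks average over all lymphomas, mouse 7 included. In that mouse Pabpc1, Ncald and Grhl2 stood at 0.74, 0.71 and 0.72 against a region median of -0.0035, so its partial gain raises their averages.

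The low stretch held 1.25 genes per Mb and the high one 12 genes per Mb, against 7.65 in the other windows. Mean GC of the probes was 36.25% in the low stretch, 36.37% in the high one and 36.4% in the whole region. Medians per Mb from 8 to 33 Mb (25 windows) were set against those of lymphoma mouse 2, which was not gained in this part. Pearson's r was 0.78 to 0.96 in the other 7 lymphomas and 0.81 to 0.92 in no-lymphoma mice 2, 7, 8, 10, 11, 12, 13 and 14. It was 0.34, 0.21 and -0.02 in no-lymphoma mice 5, 6 and 9, and -0.45, -0.45 and -0.18 in those labelled mouse 1, 3 and 4. These are descriptions over windows that share the wildtype reference and the same probes. The shape was thus seen in arrays with and without a gain, and was weak, absent or turned in 6 no-lymphoma arrays.

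**Figure D4:**
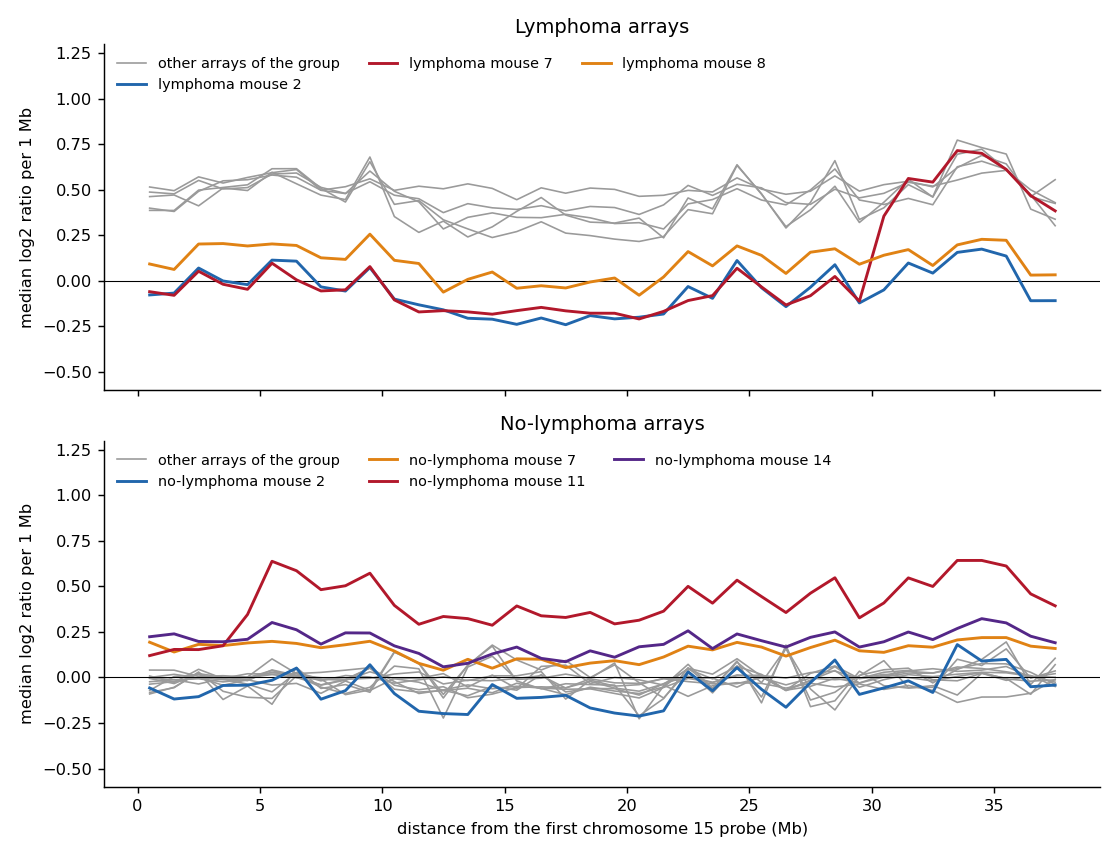
Median log2 ratio per 1 Mb window (y axis) against distance from the first chromosome 15 probe in Mb (x axis), with lymphoma arrays above and no-lymphoma arrays below, grey lines for the arrays not named in the legend. Lymphoma mouse 7 joins the gained arrays after 30.2 Mb, no-lymphoma mouse 11 rises after 4.59 Mb, and lymphoma mouse 2 stays near 0 with the same dips and peaks.

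Short segments, those under 2 Mb that differed by at least 0.25 from both neighbours in the same direction, were few, and none was called in 3 or more arrays. Lymphoma mouse 4 had a segment from 30927088 to 31733845 at 0.64, between 0.38 and 0.36, with Cct5, a chaperonin subunit, Dap and part of Ctnnd2. Segments raised by a smaller step lay there in lymphoma mouse 1, at 0.62 between 0.44 and 0.42, in mouse 2, at 0.08 between -0.08 and -0.07, and in mouse 7, at 0.03 between -0.12 and -0.11. The same probes averaged 0.62 in lymphoma mouse 1, 0.58 in mouse 5 and 0.11 in mouse 2. Lymphoma mouse 6 had 5 probes in Rims2, a synaptic gene, at -0.28 inside its gain. The same probes were low in no-lymphoma arrays as well, at -0.47 in mouse 13, -0.29 in mouse 7 and -0.26 in mouse 14.

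No-lymphoma mouse 2 had 5 short raised segments. The highest, in Ctnnd2, a catenin gene, had 5 probes at 1.31, and the longest, 0.561 Mb with Lrp12 and Dpys, had 41 probes at 0.34. No-lymphoma mice 7 and 14 shared low segments. In Rai14, 5 probes stood at -0.64 in mouse 7 and -0.76 in mouse 14, and at 7 probes by Kcns2, a potassium channel gene, the values were -0.51 and -0.81. Over the same probes the other arrays of their scan batch, lymphoma mouse 8 and no-lymphoma mouse 11, had 0.01 and 0.25 in Rai14 and 0.04 and 0.25 by Kcns2. The lowest value by Kcns2 outside these mice was -0.29, in no-lymphoma mouse 6.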

How the data were processed

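Thymocyte DNA of 22 mice was hybridised to Agilent mouse 244A arrays, and per the labels' protocols it was cut with AluI and RsaI. The deposited scanner files hold spot intensity for both channels, background-subtracted and dye-normalised by Feature Extraction 9.1.3.1 per the file headers (9.1 per the submitters' processing notes). The deposited log10 ratio of red over green equalled the series' value table with a largest difference of 0. No source used here names the genome build of the probe positions.

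Log2 ratios were taken from the processed intensities without control spots and outlier flags, averaged per probe and centred on the autosomal median, with no loess or quantile step. Segments came from optimal partitioning (at least 5 probes, penalty per break 3 × the noise variance × the log of the number of probes). Gene names were updated through a RefSeq table of GRCm38.p6, whose coordinates were not used (12155 of 25705 names were current symbols, 3589 were synonyms, and 9961 were kept). Genes with at least 3 probes were tested with limma 3.58.1 (lmFit, eBayes). limma and the segmentation were tested on simulated data. Tools were R 4.3.3, Python 3.11.15, numpy 2.4.6, numba 0.67.0 and scipy 1.17.1.

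The members and the gene lists were chosen with earlier results of these data known. Genes named were Il7r, list members, the 3 highest and 3 lowest relative to the region (with a symbol and at least 3 probes), those at starts of a gain, and any in short segments shared by at least 3 arrays, of which there were none. Genes in short segments of fewer arrays were named after their values were seen. Alternatives changed the centring, background correction (normexp, offset 50, on median signals, since not all files hold mean signals), spots, gain level, penalty, batch term and arrays. Nothing says whether mice shared litters or extractions, so p-values measure the spread between these arrays.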

Additional observations from a re-analysis of the deposited data

Results flagged for a closer look

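The values of the 8 lymphoma arrays were searched for 1 array standing apart from the rest in 72 measures, the named genes and 3 values of the region. In 5 genes such an array was found, and chance alone gives this in about 5% of groups, or 1 in 20. Within or beside the region this was Zfpm2, the gene past the start in lymphoma mouse 2, which was -0.0306 in lymphoma mouse 8 against 0.26 in the nearest other array. The other 4 belong to the interleukin-7 list outside chromosome 15. Jak3 was -0.517 in lymphoma mouse 8 (nearest -0.03). In the no-lymphoma arrays of its scan batch, mice 7, 11 and 14, Jak3 was low as well, between -1.199 and -0.382. The lowest Jak3 value outside that batch was -0.04, in no-lymphoma mouse 12. The part of the batch in the Jak3 value was not tested. Rag1 was -0.634 in lymphoma mouse 6 (nearest 0.06). Rag2, with 1 probe, was -0.233 in lymphoma mouse 3 (nearest 0.14). Pik3cd was 3.42 in lymphoma mouse 2 (nearest 1.49).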

How the results depend on the processing

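The mean region median kept its direction and lay within the spread between arrays under all 6 alternatives run for it, from 0.31 to 0.34 in the lymphomas and from 0.03 to 0.05 in the other group, and so did the mean of Il7r. The class counts moved only through arrays near a limit. With the mode as centre, and with gains called from 0.15, lymphomas of class none fell from 1 to 0. With normexp, and with gains from 0.35, no-lymphoma mouse 11 went from whole to partial (0 whole and 1 partial). With gains from 0.15 there were 4 partial no-lymphoma arrays. The penalty of 6 and the filter on spots well above background changed no class. The count of higher member genes, 88 of 141, moved to 6 with the scan batch as a block (2.88% of all genes higher), 45 without the 3 arrays whose Atm probe was negative (4.47%), and 49 without the noisiest array of each group (5.14%). It ran from 78 to 94 of 141 otherwise, where between 4.62% (normexp) and 8.72% (sign turned, 78 of 141) of all genes were higher. With genes of 1 or more probes it was 101 of 227, beside 5.08%. The interleukin-7 count of 0 of 11 became 1 with the mode as centre (8.17% of all genes in either direction) and 2 with the sign turned for no-lymphoma mouse 9 and the arrays labelled 3 and 4 (13.65%). The cause of these moves was not tested. No paired analysis was possible because the labels give the groups no shared replicate numbers.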
